A study of Mus musculus with 5 samples.

Results

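The genes described are the enzymes of glycolysis, the carriers that bring glucose in and lactate out, the kinases that hold pyruvate out of mitochondria, and the hypoxia factor gene Hif1a. They were chosen by gene symbol, and all 31 were found by Ensembl identifier among the 19127 genes of the table. Expression was measured by RNA sequencing of polyadenylated RNA from mouse blood neutrophils that had been gated by an antibody to Ly6G, amplified with a kit for very small inputs. Male mice aged 7 to 10 weeks were bled at ZT13 (Zeitgeber time 13 h), or 20 h by the wall clock. There were 2 libraries from BMALf/f x Mrp8Cre mice (numbers 2 and 3), in which Bmal1 (gene symbol Arntl) is floxed, and 3 from CXCR4f/f x Mrp8Cre mice (numbers 1, 2 and 3), in which Cxcr4 is floxed. Both groups carry the same Cre, which is driven by the Mrp8 promoter active in neutrophils, and no mice without a floxed gene were analysed here. Which genotype a difference belongs to cannot be told apart. Nothing in the labels ties a library to its own animal, and p-values therefore cover only the spread among the libraries, part of which may be technical. The libraries are named Bmal1-flox 2 and 3 and Cxcr4-flox 1, 2 and 3 by their labels.

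Values are normalised read counts as the authors deposited them, and whole reads could be recovered from them. Recovered reads summed to between 2869625 and 4058914 in the 2 Bmal1-flox libraries and between 356872 and 9101826 in the 3 Cxcr4-flox ones. In Cxcr4-flox 1, the shallowest, 3 reads equal 6.46 normalised counts, against at most 0.902 in the other libraries. Arntl did not follow the labels, with 4.81 and 27.6 in Bmal1-flox 2 and 3, against 15.1, 1.90 and 1.05 in Cxcr4-flox 1, 2 and 3. Cxcr4 was lower in every library labelled for it, with 399 and 128 in Bmal1-flox 2 and 3, against 15.1, 72.2 and 4.80 in Cxcr4-flox 1, 2 and 3. The names of the libraries stand for the label alone. The libraries also differed in cell content. The 16 neutrophil markers made up 1.18% and 0.800% of the column in Bmal1-flox 2 and 3, against 2.23%, 0.533% and 0.0454% in Cxcr4-flox 1, 2 and 3. The sum in Cxcr4-flox 1 was led by S100a9 (6509) and S100a8 (2531). Ly6g, Retnlg, Mmp8, Ltf, Ngp, Camp and Lcn2 were also highest in that library. Csf3r, Cxcr2, Mmp9, Hdc and Clec4d were highest in Bmal1-flox 2, and Il1r2 and Trem1 in Cxcr4-flox 2. All 12 pan-endothelial markers were detected in every library, with sums from 0.525% to 0.736% in the Bmal1-flox libraries and from 0.587% to 1.21% in the Cxcr4-flox ones. Markers of liver sinusoidal endothelium, 8 genes none of which was at 0, made up 0.0843% and 1.32% in Bmal1-flox 2 and 3, against 0.455%, 0.147% and 1.86% in Cxcr4-flox 1, 2 and 3. By these sums Cxcr4-flox 3 had the least neutrophil and the most endothelial signal, and results that rest on it are given without it. Single endothelial markers were split. Kdr, Tek, Eng and Robo4 were highest in Cxcr4-flox 3 (Kdr 6062, against 1579 in Cxcr4-flox 2). Pecam1, Cdh5, Tie1, Emcn, Esam, Ramp2, Egfl7, Cldn5 and the sinusoidal marker Lyve1 were highest in Cxcr4-flox 2 (Pecam1 1378, against 673 in Cxcr4-flox 3). Ly6g itself had 6.31 and 5.16 normalised counts in Bmal1-flox 2 and 3, against 30.1, 0 and 1.05 in Cxcr4-flox 1, 2 and 3, and was the only neutrophil marker at 0 in any library. In such bulk samples, fewer cells of a type and less RNA per cell cannot be told apart.

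Glycolysis splits glucose into pyruvate in the cytosol and yields ATP without oxygen. Neutrophils hold few mitochondria and draw most of their ATP from it, so they take up glucose through facilitative carriers, reduce much of the pyruvate to lactate and export that lactate. Most steps have several isoenzymes, and cell types differ in which of them they use.

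No member differed between the genotypes past the threshold. Of the 29 members tested, limma called 0 at an adjusted p under 0.05, beside 0% of the 14632 genes tested, and edgeR also called 0 members and 0% of genes. DESeq2 called 0 members, beside 0.0888% of genes. At an unadjusted p under 0.05 limma, edgeR and DESeq2 each found 0 members, beside 4.18%, 3.58% and 4.66% of all genes. By limma that count was 7 of 30 tested members without Cxcr4-flox 1, beside 10.7% of all genes in that fit, and 3 of 30 without Cxcr4-flox 2, beside 3.52%. Split by direction, 3.68% of all genes were higher and 0.499% lower by limma, 2.44% and 1.14% by edgeR, and 2.27% and 2.39% by DESeq2. Each difference is the Bmal1-flox mean minus the Cxcr4-flox mean of log2(value + 1), given with a standard error (SE), and such differences understate the difference of low genes. They were positive for 20 members (69.0%, beside 55.2% of all genes) and negative for 9, and ran from -1.65 for Pfkm to 3.29 for Pgk1. Their median was 0.46, beside 0.11 over all genes tested. Values of the groups did not overlap for 7 tested members (24.1%, beside 18.8% of all genes). These were Slc2a3, Slc2a6, Hk1, Pfkfb4, Bpgm and Pdk3 on the higher side, where 13.6% of all genes stood, and Pfkm on the lower side, where 5.22% stood. With a library left out, groups overlap less across the table. The share of members without overlap was then 62.1% (18 members) without Bmal1-flox 3, beside 39.2% of all genes, 56.7% (17 members) without Cxcr4-flox 1, beside 43.3%, and 56.7% (17 members) without Cxcr4-flox 2, beside 31%. That share was 34.5% (10 members) without Bmal1-flox 2, beside 33.3% of all genes, and 26.7% (8 members) without Cxcr4-flox 3, beside 32.6%. For 12 of the 29 members the difference was smaller than its SE.

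**Figure D1:**
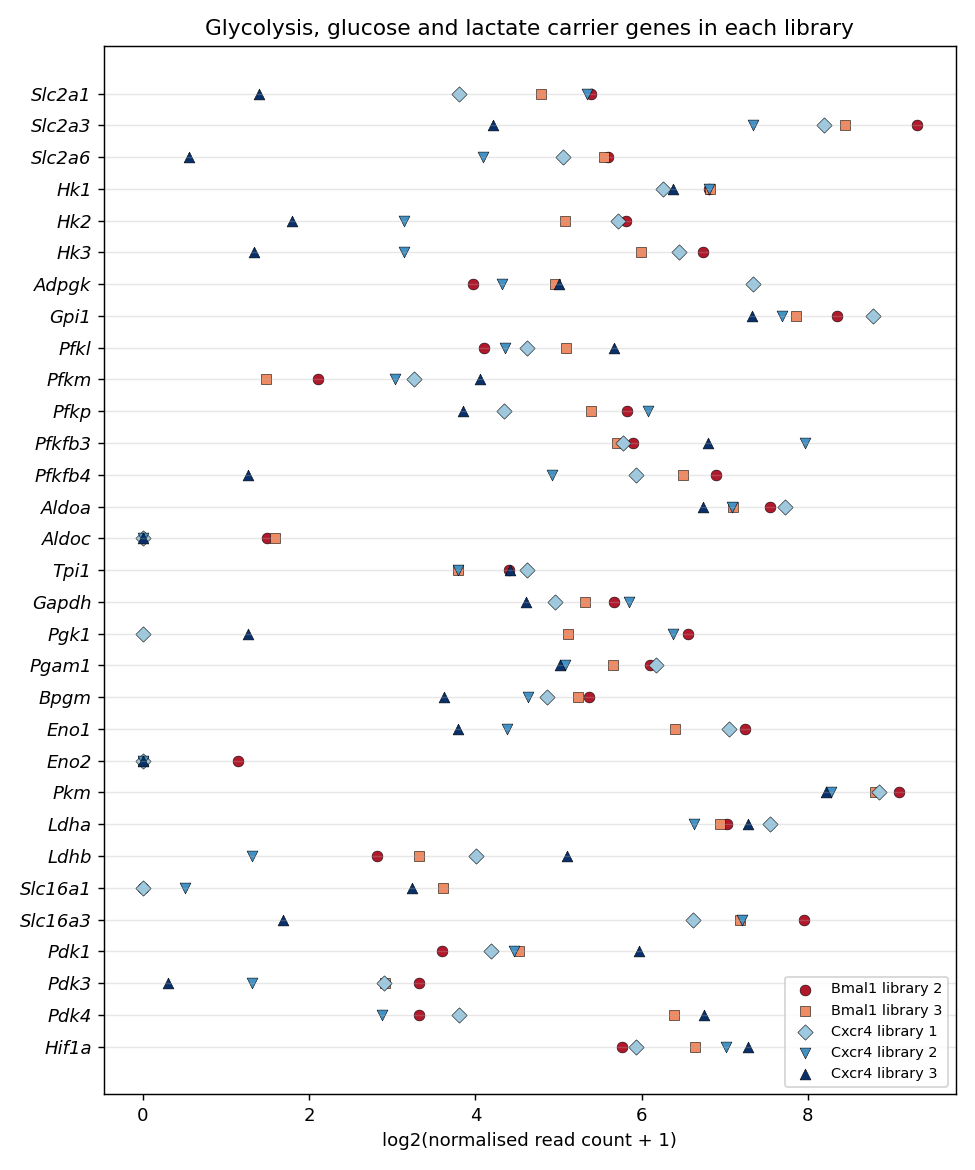
Each row is 1 gene and each point 1 library, on a log2(normalised read count + 1) axis, with Bmal1-flox libraries in red and orange and Cxcr4-flox libraries in blue. Pkm, Aldoa, Ldha and Gpi1 lie close together in all 5 libraries, while Slc2a3, Hk3, Pfkfb4 and Slc16a3 spread widely and are lowest in Cxcr4-flox 3.

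The members ranged from steady to variable genes, with others spread in between. Pkm, which encodes pyruvate kinase and so the last step that makes ATP (chromosome 9, 59656368 to 59679375, plus strand of GRCm38), had 545 and 449 normalised counts in Bmal1-flox 2 and 3, against 463, 310 and 298 in Cxcr4-flox 1, 2 and 3. Its highest library was 1.83 times its lowest, and the groups overlapped, with a difference of 0.50 (SE 0.46). The corresponding ratio was 1.88 for Ldha, 1.85 for Tpi1, 1.49 for Hk1 and 2.75 for Gpi1. At the other end stood Slc16a3 with a ratio of 111, Slc2a6 with 101, Pfkfb4 with 83.9, Hk3 with 69.5, Pdk3 with 38.5 and Slc2a3 with 36.1. Their lowest values, all in Cxcr4-flox 3, stand for 19, 4, 12, 13, 2 and 150 reads in that order. Ratios that rest on so few reads are imprecise. Pgk1 and Slc16a1, each at 0 in at least 1 library, have no such ratio. Per kilobase of merged exon, which allows levels of different genes to be set side by side, Pkm was the most abundant member with a mean over the 5 libraries of 82.6. Aldoa (53.2), Gpi1 (42.3), Ldha (41.7) and Slc2a3 (40.1) followed, and Pfkl, Pfkm and Pfkp lay between 2.18 and 4.26.

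Among the glucose carriers, Slc2a3 (GLUT3, a carrier with high affinity for glucose) held most of the signal. Slc2a3 (chromosome 6, 122727809 to 122801640, minus strand) had 634 and 347 in Bmal1-flox 2 and 3, against 293, 161 and 17.6 in Cxcr4-flox 1, 2 and 3. The groups did not overlap, but Bmal1-flox 3 lay closer to Cxcr4-flox 1 than to its own group. The difference was 2.29 (SE 1.04, limma unadjusted p 0.0575, adjusted p 0.9999), the smallest p among the members, and it was 1.11 without Cxcr4-flox 3. Slc2a6, a carrier found on lysosomes of myeloid cells (chromosome 2, 27021363 to 27027998, minus strand), had 47.2 and 45.7 in Bmal1-flox 2 and 3, against 32.3, 16.0 and 0.468 in Cxcr4-flox 1, 2 and 3. It also had no overlap, with a difference of 2.33 (SE 1.25) that was 0.99 without Cxcr4-flox 3. Slc2a1, the widely expressed carrier GLUT1, overlapped between the groups, with 40.9 and 26.7 in Bmal1-flox 2 and 3 and 12.9, 39.5 and 1.64 in Cxcr4-flox 1, 2 and 3. Per kilobase, Slc2a3 held 76.9% and 68.7% of the carrier signal in Bmal1-flox 2 and 3, against 74.6%, 57.7% and 79.8% in Cxcr4-flox 1, 2 and 3. The level of Slc2a3 was thus low in Cxcr4-flox 3 while its share of the family was the highest of the 5.

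Hexokinases trap glucose in the cell by phosphorylation, and the makeup of this family differed between libraries. Hk1, the broadly expressed form bound to mitochondria, had 112 and 113 in Bmal1-flox 2 and 3, against 75.3, 111 and 82.2 in Cxcr4-flox 1, 2 and 3. The lack of overlap for Hk1 therefore rests on a gap smaller than the counting error of either library, and its difference was 0.34 (SE 0.45). Hk3, the form typical of myeloid cells (chromosome 13, 55005985 to 55021385, minus strand), had 106 and 62.8 in Bmal1-flox 2 and 3, against 86.1, 7.81 and 1.52 in Cxcr4-flox 1, 2 and 3. Hk2, a form inducible by insulin, hypoxia and activation, had 55.3 and 32.7 in Bmal1-flox 2 and 3, against 51.7, 7.81 and 2.46 in Cxcr4-flox 1, 2 and 3. For both genes Cxcr4-flox 1 lay within the range of the Bmal1-flox libraries and the other 2 Cxcr4-flox libraries lay below it. The differences were 2.73 (SE 1.30) for Hk3 and 1.90 (SE 1.11) for Hk2, against 1.58 and 1.02 without Cxcr4-flox 3 and 4.13 and 2.98 without Cxcr4-flox 1.

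As a share of the family per kilobase, Hk3 made up 56.3% and 47.7% in Bmal1-flox 2 and 3, against 57.2%, 12.9% and 3.95% in Cxcr4-flox 1, 2 and 3. Hk1 made up 25.6% and 36.9% in Bmal1-flox 2 and 3, against 21.6%, 79.1% and 92.1% in Cxcr4-flox 1, 2 and 3. The share of Hk3 in Cxcr4-flox 1 rests on 40 of 99 hexokinase reads (95% exact Clopper-Pearson interval of the share 46.6% to 67.0%, counting error only). When the longest transcript was used as the length, Hk1 was ahead of Hk3 in Bmal1-flox 3 (50.8% against 37.7%), so the order of these forms in that library depends on the length chosen. Adpgk, an ADP-dependent glucokinase of the endoplasmic reticulum, had 14.7 and 30.0 in Bmal1-flox 2 and 3, against 161 and 19.0 in Cxcr4-flox 1 and 2, with Cxcr4-flox 3 close to Bmal1-flox 3. Its difference of -1.09 (SE 0.91) was -0.20 without Cxcr4-flox 1.

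Phosphofructokinase is the main control point of glycolysis, and PFKFB enzymes make and break a fructose bisphosphate that activates it. Pfkfb4 (chromosome 9, 108991778 to 109032228, plus strand) had 118 and 89.5 in Bmal1-flox 2 and 3, against 60.3, 29.3 and 1.41 in Cxcr4-flox 1, 2 and 3. All Cxcr4-flox values lay below both Bmal1-flox ones, and the difference was 2.65 (SE 1.22, limma unadjusted p 0.0599), or 1.27 without Cxcr4-flox 3. Pfkfb3, the form whose kinase activity far exceeds its phosphatase activity (chromosome 2, 11471433 to 11554077, minus strand), had a difference of the opposite sign. It had 58.3 and 51.1 in Bmal1-flox 2 and 3, against 53.8, 249 and 110 in Cxcr4-flox 1, 2 and 3, a difference of -1.05 (SE 0.66), or -0.49 without Cxcr4-flox 2. Cxcr4-flox 1 again lay close to the Bmal1-flox libraries.

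Their balance had the largest difference in mean share of any family. Pfkfb4 held 75.8% and 73.1% of the PFKFB signal per kilobase in Bmal1-flox 2 and 3, against 63.5%, 15.5% and 1.94% in Cxcr4-flox 1, 2 and 3. Mean shares were 74.4% ± 1.93 (SD, n = 2) and 27.0% ± 32.3 (SD, n = 3), and the groups did not overlap. A two-sided exact permutation test over the 10 splits gave p = 0.2, the smallest this design allows, and an adjusted p of 0.733 over the 22 shares tested. The value of Cxcr4-flox 1 rests on 28 of 53 reads, and its counting interval of 49.4% to 75.6% includes the share of Bmal1-flox 3.

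The phosphofructokinase subunits were all scarce. Pfkm, the muscle-type subunit (chromosome 15, 98092589 to 98132451, plus strand), had 3.31 and 1.79 in Bmal1-flox 2 and 3, against 8.61, 7.18 and 15.6 in Cxcr4-flox 1, 2 and 3, with no overlap. These values stand for 11 and 8 reads in the Bmal1-flox libraries, against 4, 34 and 133 reads in the Cxcr4-flox ones. The difference was -1.65 (SE 0.92), or -1.35 without Cxcr4-flox 3. Pfkl, the liver-type subunit, had 16.2 and 33.0 in Bmal1-flox 2 and 3, against 23.7, 19.4 and 49.8 in Cxcr4-flox 1, 2 and 3. Pfkp, the platelet-type subunit, had 55.6 and 40.8 in Bmal1-flox 2 and 3, against 19.4, 66.7 and 13.5 in Cxcr4-flox 1, 2 and 3. Both overlapped between the groups.

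**Figure D2:**
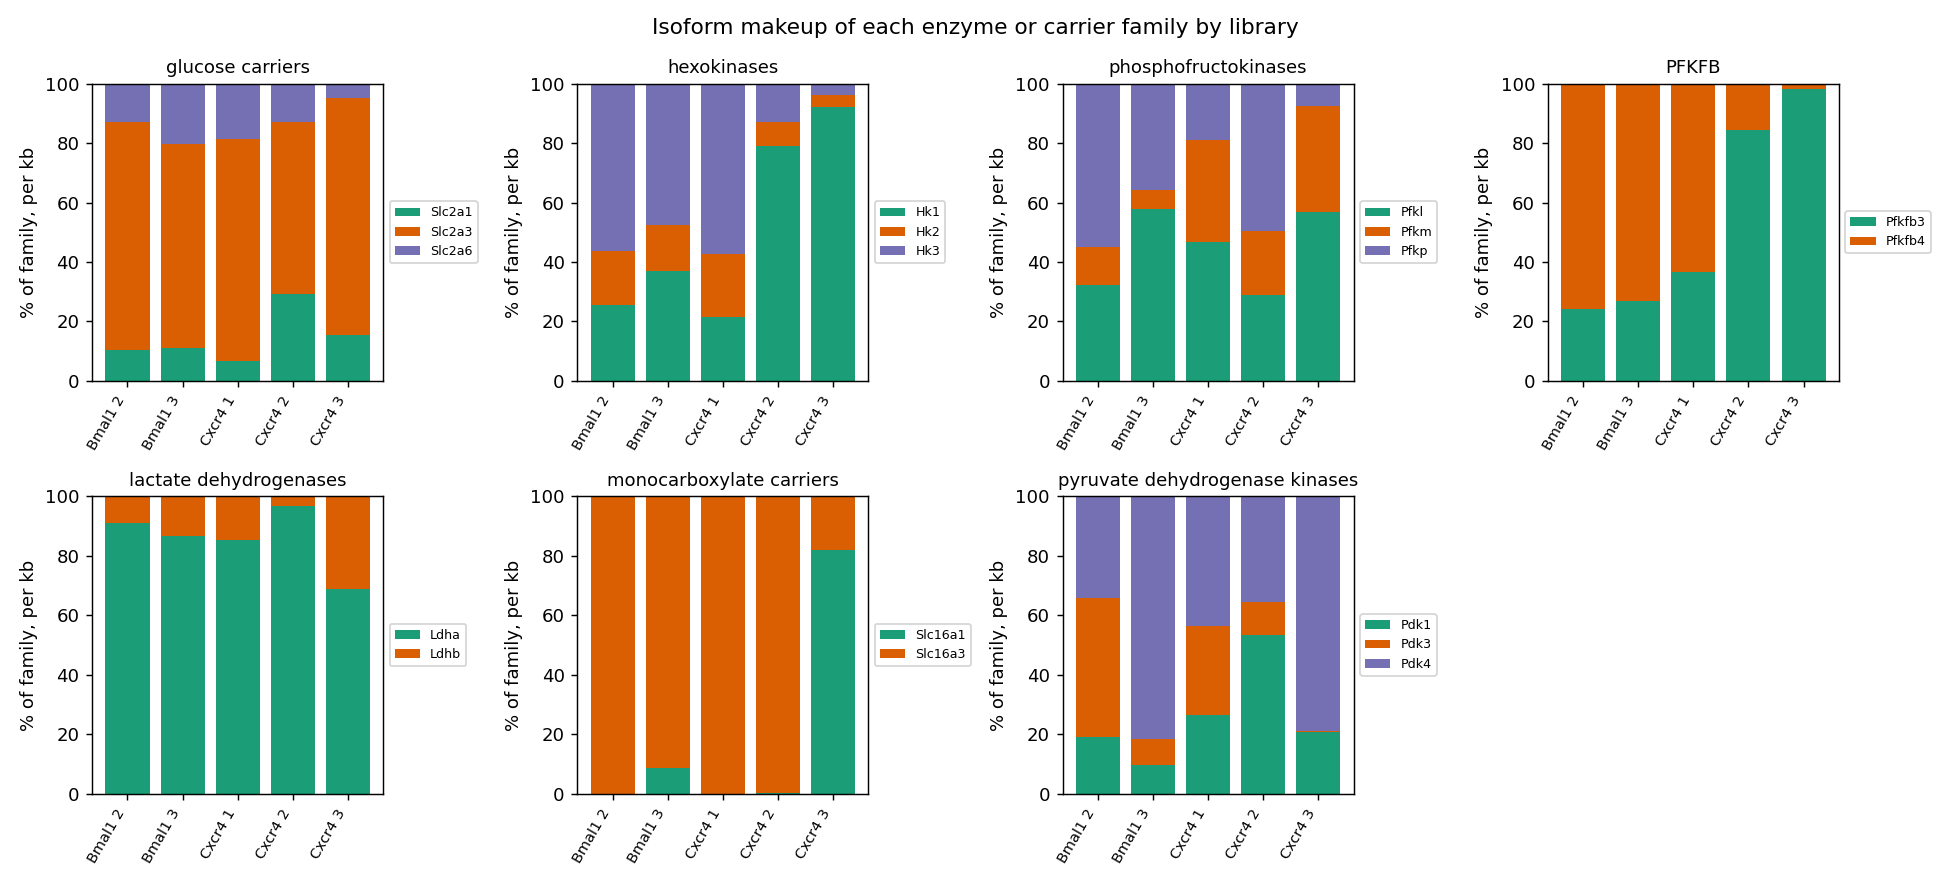
Stacked bars give the share of each family's signal per kilobase of exon held by each isoform, in percent, with 1 bar per library. In the PFKFB panel Pfkfb4 takes 75.8% and 73.1% in Bmal1-flox 2 and 3, against 63.5%, 15.5% and 1.94% in Cxcr4-flox 1, 2 and 3.

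Most genes of the middle of the pathway overlapped between the groups. Gpi1, the isomerase that follows hexokinase, had 326 and 231 in Bmal1-flox 2 and 3, against 441, 206 and 160 in Cxcr4-flox 1, 2 and 3. Aldoa, the aldolase that splits the sugar into trioses (chromosome 7, 126795234 to 126800751, minus strand), had 185 and 136 in Bmal1-flox 2 and 3, against 211, 136 and 106 in Cxcr4-flox 1, 2 and 3. Both genes were highest in Cxcr4-flox 1 and lowest in Cxcr4-flox 3, with differences of 0.17 (SE 0.55) and 0.14 (SE 0.48). Aldoc, the brain-type aldolase, had 6 and 9 reads in Bmal1-flox 2 and 3 and 0 in all 3 Cxcr4-flox libraries, and was too low to be tested. Tpi1, which interconverts the trioses, had 20.1 and 12.8 in Bmal1-flox 2 and 3, against 23.7, 12.9 and 20.4 in Cxcr4-flox 1, 2 and 3. Pgam1, the mutase that precedes enolase, had 67.6 and 49.3 in Bmal1-flox 2 and 3, against 71.0, 32.7 and 31.4 in Cxcr4-flox 1, 2 and 3, and both genes overlapped between the groups. Bpgm, which makes bisphosphoglycerate and is best known from red cells, had 40.3 and 36.5 in Bmal1-flox 2 and 3, against 28.0, 23.9 and 11.4 in Cxcr4-flox 1, 2 and 3, without overlap (difference 0.93, SE 0.64, or 0.55 without Cxcr4-flox 3). Erythroid markers made up 0.347% and 0.256% in Bmal1-flox 2 and 3, against 0.287%, 0.00889% and 0.0172% in Cxcr4-flox 1, 2 and 3, and their part in the Bpgm values was not tested.

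Pgk1, phosphoglycerate kinase and the first step that makes ATP (chromosome X, 106187100 to 106203699, plus strand), had the largest difference of any member and could not be read by itself. It had 93.2 and 33.6 in Bmal1-flox 2 and 3, against 0, 82.1 and 1.41 in Cxcr4-flox 1, 2 and 3, a difference of 3.29 (SE 1.70, limma unadjusted p 0.0872), or 2.01 without Cxcr4-flox 1 and 5.20 without Cxcr4-flox 2. The table also lists processed pseudogenes whose annotated transcripts match that of Pgk1 at 100% identity, Gm5537 over 1252 bases (chromosome 3, 58102996 to 58104247, minus strand) and Pgk1-rs7 over 1255 bases (chromosome 12, 10898986 to 10900240, minus strand).

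The copies held reads where Pgk1 had few. Gm5537 had 0 and 30.9 in Bmal1-flox 2 and 3, against 142, 2.74 and 89.2 in Cxcr4-flox 1, 2 and 3. Pgk1-rs7 had 0 and 34.3 in Bmal1-flox 2 and 3, against 60.3, 0 and 0 in Cxcr4-flox 1, 2 and 3. Pgk1 and its copies together summed to 93.2 and 98.9 in Bmal1-flox 2 and 3, against 202, 84.9 and 90.6 in Cxcr4-flox 1, 2 and 3, so 4 of the 5 libraries lay within 84.9 to 98.9. The difference of this sum was -0.27 (SE 0.53), opposite in sign to that of the Pgk1 row.

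**Figure D3:**
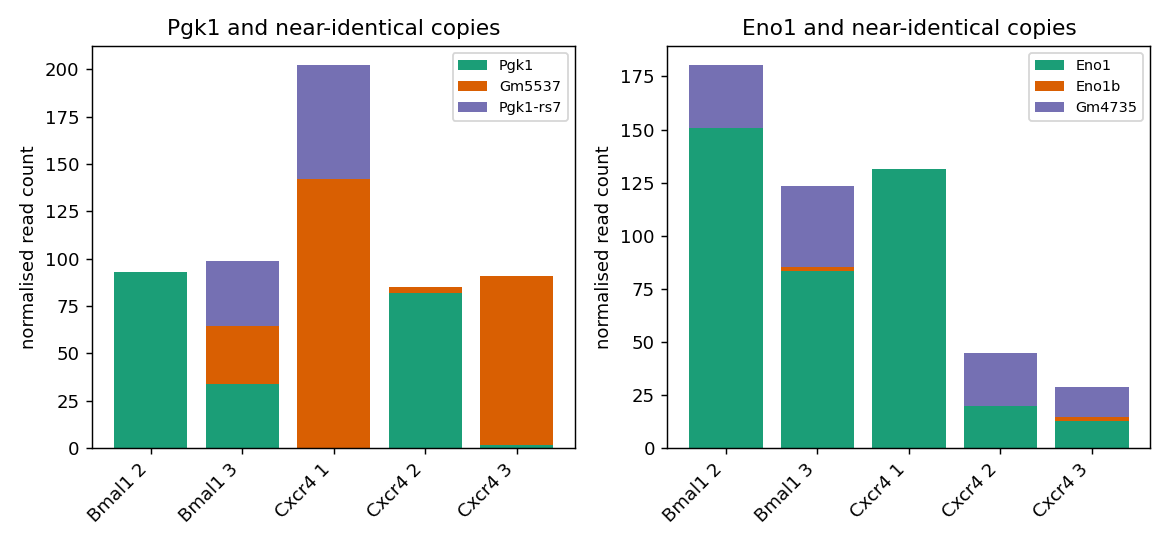
Bars give normalised read counts by library for Pgk1 (left) and Eno1 (right), stacked with the rows of near-identical annotated copies. The Pgk1 segment is missing in Cxcr4-flox 1, where Gm5537 (142) and Pgk1-rs7 (60.3) hold the reads.

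A copy in the annotation, at 95% identity or more over at least 300 bases, was found for 9 members, and 5 had such a copy in the table. Eno1, the enolase of most tissues (chromosome 4, 150236721 to 150248879, plus strand), had 151 and 83.4 in Bmal1-flox 2 and 3, against 131, 19.8 and 12.9 in Cxcr4-flox 1, 2 and 3 (difference 1.75, SE 0.93, or 1.11 without Cxcr4-flox 3 and 2.73 without Cxcr4-flox 1). Its pseudogene Gm4735, 99.6% identical, held 29.5 and 38.1 in Bmal1-flox 2 and 3, against 0, 24.9 and 14.1 in Cxcr4-flox 1, 2 and 3. With all copies in the table added, Eno1 stood at 180 and 123 in Bmal1-flox 2 and 3, against 131, 44.8 and 28.7 in Cxcr4-flox 1, 2 and 3, and the difference was 1.41 (SE 0.67, limma unadjusted p 0.0677). Cxcr4-flox 1 lay between the Bmal1-flox libraries, and Cxcr4-flox 2 and 3 lay below them, as for Hk2 and Hk3. Eno2, the neuronal enolase, had 4 reads in Bmal1-flox 2 and 0 in each of the others. Gapdh, which oxidises the triose phosphate, had 49.9 and 38.8 in Bmal1-flox 2 and 3, against 30.1, 56.6 and 23.3 in Cxcr4-flox 1, 2 and 3, and overlapped (difference 0.36, SE 0.59). Of its 43 annotated copies 3 are in the table and the others were not analysed here, so the level of Gapdh, 9.62 per kilobase against 82.6 for Pkm, is uncertain.

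Lactate dehydrogenase turns pyruvate into lactate and back. Ldha, the muscle-type subunit (chromosome 7, 46841475 to 46855627, plus strand), had 130 and 122 in Bmal1-flox 2 and 3, against 185, 98.4 and 155 in Cxcr4-flox 1, 2 and 3. The Bmal1-flox values lay inside the range of the Cxcr4-flox ones, and the difference was -0.17 (SE 0.47). Ldhb, the heart-type subunit, had 6.01 and 8.97 in Bmal1-flox 2 and 3, against 15.1, 1.48 and 33.3 in Cxcr4-flox 1, 2 and 3. The share of Ldha per kilobase was 91.1% and 86.6% in Bmal1-flox 2 and 3, against 85.4%, 96.9% and 68.8% in Cxcr4-flox 1, 2 and 3, so it was lowest in Cxcr4-flox 3 (1321 of 1605 reads, interval 66.0% to 71.6%).

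Lactate leaves through monocarboxylate carriers. Slc16a3 (MCT4, the export carrier of strongly glycolytic cells, chromosome 11, 120948480 to 120960868, plus strand) had 247 and 144 in Bmal1-flox 2 and 3, against 96.9, 147 and 2.22 in Cxcr4-flox 1, 2 and 3. The groups overlapped at Cxcr4-flox 2, and the difference of 2.40 (SE 1.44) was 0.66 without Cxcr4-flox 3. Slc16a1 (MCT1, a carrier of many tissues) had 0 and 50 reads in Bmal1-flox 2 and 3, against 0, 2 and 72 in Cxcr4-flox 1, 2 and 3. It made up 82.0% of this pair per kilobase in Cxcr4-flox 3 (72 of 91 reads, interval 73.1% to 88.9%) and 8.53% in Bmal1-flox 3, and at most 0.344% in the other 3 libraries, where the exact interval for 0 of 45 reads in Cxcr4-flox 1 reaches 9.31%.

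Pyruvate dehydrogenase kinases switch off the entry of pyruvate into mitochondria, and Hif1a encodes the hypoxia factor that activates many glycolytic genes. Pdk4, the form induced by fasting (chromosome 6, 5483351 to 5496309, minus strand), had 9.02 and 83.0 in Bmal1-flox 2 and 3, against 12.9, 6.33 and 106 in Cxcr4-flox 1, 2 and 3. It was high in 1 library of each group, the same 2 libraries in which Slc16a1 and the sinusoidal endothelial markers (1.32% and 1.86%) were highest. The part of endothelial content in these values was not tested. Pdk1, a target of HIF, had 11.1 and 22.0 in Bmal1-flox 2 and 3, against 17.2, 21.1 and 61.6 in Cxcr4-flox 1, 2 and 3, highest in Cxcr4-flox 3. Pdk3 had 9.02 and 6.50 in Bmal1-flox 2 and 3, against 6.46, 1.48 and 0.234 in Cxcr4-flox 1, 2 and 3. These values stand for 30 and 29 reads in the Bmal1-flox libraries, against 3, 7 and 2 reads in the Cxcr4-flox ones, so its lack of overlap rests on 3 reads in Cxcr4-flox 1. Hif1a (chromosome 12, 73901375 to 73947530, plus strand) had 53.5 and 98.7 in Bmal1-flox 2 and 3, against 60.3, 129 and 154 in Cxcr4-flox 1, 2 and 3. Its groups overlapped, with a difference of -0.54 (SE 0.57). That difference was -0.98 without Bmal1-flox 3, -0.95 without Cxcr4-flox 1, -0.27 without Cxcr4-flox 3 and -0.11 without Bmal1-flox 2.

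Over the 9 families 22 isoform shares were tested, and the groups did not overlap for 6 of them. Those were both PFKFB shares, both aldolase shares (which rest on the 6 and 9 reads of Aldoc), Pfkm (13.1% and 6.30% in Bmal1-flox 2 and 3, against 34.1%, 21.4% and 35.5% in Cxcr4-flox 1, 2 and 3) and Pdk1 (19.0% and 9.74% in Bmal1-flox 2 and 3, against 26.3%, 53.3% and 20.7% in Cxcr4-flox 1, 2 and 3). The shares of a family of 2 mirror each other, so the PFKFB pair is 1 result and the aldolase pair is 1 result. In Cxcr4-flox 1 Pfkm rests on 4 of 24 reads (interval 11.4% to 60.65%) and Pdk1 on 8 of 17 (10.7% to 51.0%). Both intervals include the share in Bmal1-flox 2. Shares were not computed for other gene families, so the count of 6 has no background beside it. The lowest adjusted p over the 22 shares was 0.733 by the exact permutation test, and no share could pass in a design of 2 against 3.

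Some of the most variable members were lowest in the library with the least neutrophil signal. Slc2a3, Hk2, Hk3, Pfkfb4, Slc2a6, Slc2a1, Slc16a3, Pdk3 and Eno1 were all lowest in Cxcr4-flox 3, where the neutrophil markers made up 0.0454% of the column. All 31 members together made up 0.372% and 0.268% of the column in Bmal1-flox 2 and 3, against 0.348%, 0.206% and 0.142% in Cxcr4-flox 1, 2 and 3. Their sum therefore had the same lowest and second lowest libraries as the neutrophil markers. Monocyte and macrophage markers made up 0.0458% and 0.0248% in Bmal1-flox 2 and 3, against 0.0252%, 0.00826% and 0.00477% in Cxcr4-flox 1, 2 and 3. Pan-endothelial markers made up 0.525% and 0.736% in Bmal1-flox 2 and 3, against 0.587%, 0.940% and 1.21% in Cxcr4-flox 1, 2 and 3. The members' sum had the library order of the monocyte markers and the reverse of the pan-endothelial order. Other variable members did not follow the order of the neutrophil markers. Ldhb (33.3) and Pdk4 (106) were highest in Cxcr4-flox 3, and Slc16a1 (8.43) was second highest there. The Pgk1 row was at 0 in Cxcr4-flox 1, which had the largest sum of neutrophil markers, though not the highest value of each marker. With its copies added, Pgk1 was instead highest in that library (202), so the 0 cannot be read as an exception. Members that varied less were split as well. Pkm, Gpi1, Aldoa, Gapdh, Pgam1, Bpgm and Pfkp were also lowest in Cxcr4-flox 3. Ldha was higher in Cxcr4-flox 3 (155) than in either Bmal1-flox library, and Hif1a, Pfkl, Pfkm and Pdk1 were highest there. How many of all genes were lowest in that library was not counted. The part of neutrophil, monocyte or endothelial content in these values was not tested. Without Cxcr4-flox 3 the median difference of the tested members was 0.40, and 0 members were called by limma.

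**Figure D4:**
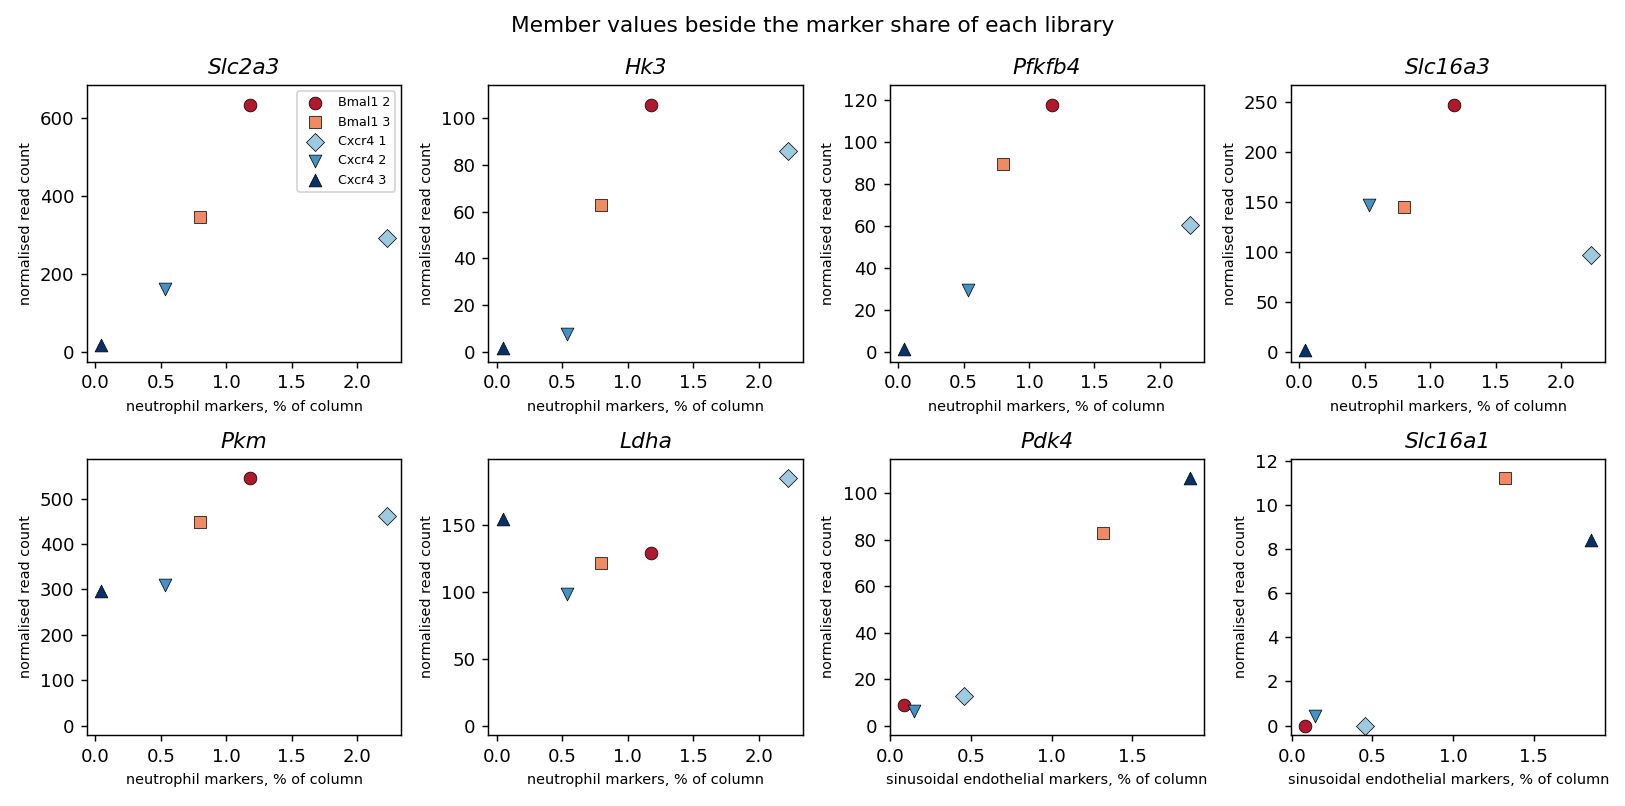
Each panel sets 1 gene's normalised read count (vertical axis) against the percent of the column held by neutrophil markers, or for Pdk4 and Slc16a1 by liver sinusoidal endothelial markers, with 1 point per library. The 8 genes were picked after their values were seen. Slc2a3, Hk3, Pfkfb4 and Slc16a3 are lowest where the neutrophil share is 0.0454%, and Pdk4 and Slc16a1 are high where the sinusoidal share is 1.32% or 1.86%.

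Promoters were searched for the E-box CACGTG, which CLOCK with BMAL1 binds, and for ACGTG, the core of the hypoxia response element, on both strands. Every CACGTG contains ACGTG. RefSeq windows on GRCm38.p6, from 250 bases before to 50 after a start, were found for 30 of the 31 members (43 windows). CACGTG was in 5 of these windows (11.6%), beside 7.15% of all 32851 windows, and ACGTG was in 21 (48.8%), beside 19.6%. The stretches around each CACGTG are shown, 5′ to 3′ in the gene's direction with the E-box in capitals, because they are the members whose windows hold the motif of the factor floxed in 1 group. They come from chr2:11502101-11502180 (minus strand), chr3:104638427-104638506, chr7:46845622-46845798, chr12:73907695-73907774 and chr15:98092416-98092495 (all plus strand).
Pfkfb3: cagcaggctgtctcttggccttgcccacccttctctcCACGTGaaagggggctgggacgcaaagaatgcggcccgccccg
Slc16a1: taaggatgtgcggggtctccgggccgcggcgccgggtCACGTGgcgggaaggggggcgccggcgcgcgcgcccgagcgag
Ldha: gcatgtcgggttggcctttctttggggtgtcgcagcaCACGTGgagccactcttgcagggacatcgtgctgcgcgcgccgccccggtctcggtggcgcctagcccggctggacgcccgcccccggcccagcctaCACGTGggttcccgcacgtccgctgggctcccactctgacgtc
Hif1a: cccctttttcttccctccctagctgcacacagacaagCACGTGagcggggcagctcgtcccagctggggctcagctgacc
Pfkm: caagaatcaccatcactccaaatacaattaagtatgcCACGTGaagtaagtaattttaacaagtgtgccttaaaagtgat

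The Ldha window holds 2 E-boxes, starting at -145 and -48 from the annotated start, and the others hold 1. Differences of these genes were -1.05 (SE 0.66) for Pfkfb3, -1.65 (SE 0.92) for Pfkm, -0.54 (SE 0.57) for Hif1a, -0.17 (SE 0.47) for Ldha and 0.56 (SE 1.40) for Slc16a1. None passed the threshold, and a match of letters is not a bound site. Of the members with differences above 2, Pgk1, Hk3 and Slc16a3 held ACGTG without CACGTG, Pfkfb4 and Slc2a6 held neither, and Slc2a3 had no window in the table used.

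**Figure D5:**
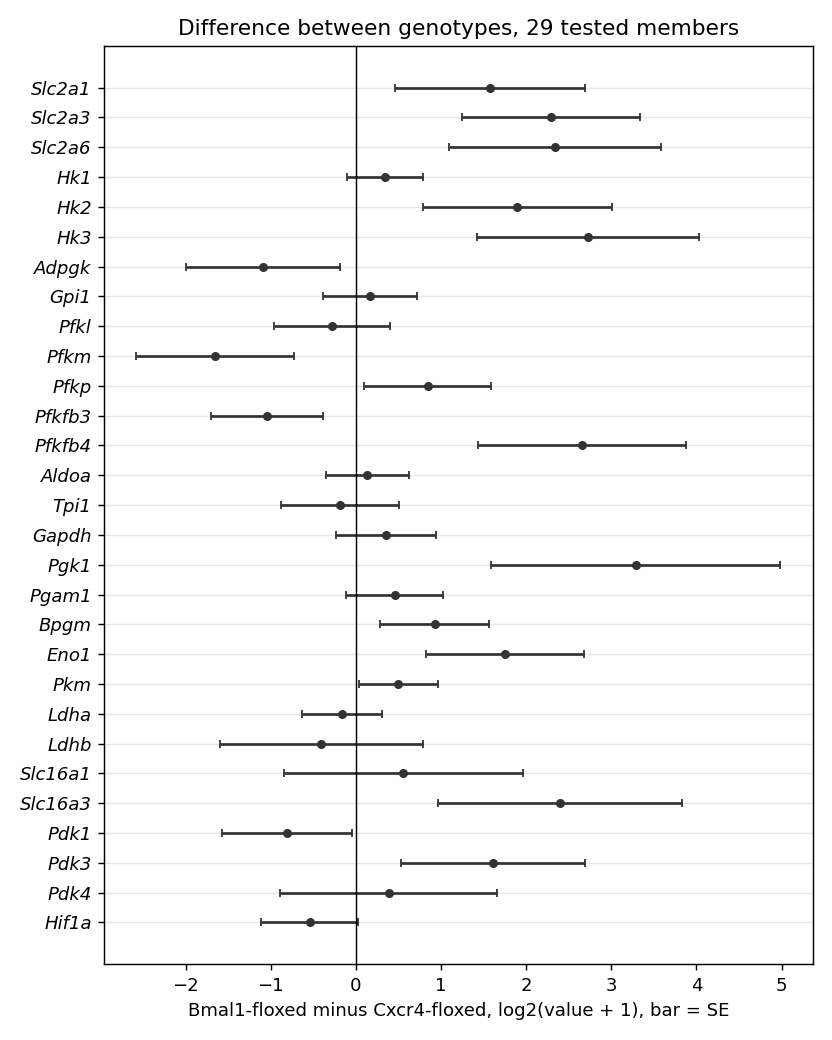
Points give the limma difference, Bmal1-flox minus Cxcr4-flox, on the log2(value + 1) scale for the 29 tested members, with bars of 1 SE and a line at 0. Most points lie right of 0, the 12 differences smaller than their SE reach across the line, and Pgk1 (3.29) lies farthest right.

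No gene of the neighbouring pathways passed the threshold either. Of the 10 pentose phosphate genes, all tested, limma called 0 in either direction, with 8 positive and 2 negative differences and a median of 0.69, which was 0.35 without Cxcr4-flox 2. Rpia, which isomerises ribose phosphate, had 69.4 and 65.9 in Bmal1-flox 2 and 3, against 15.1, 29.8 and 28.8 in Cxcr4-flox 1, 2 and 3, without overlap (difference 1.49, SE 0.57, limma unadjusted p 0.0299, adjusted p 0.9999). Taldo1, transaldolase, had 562 and 353 in Bmal1-flox 2 and 3, against 435, 111 and 83.1 in Cxcr4-flox 1, 2 and 3. Pgd, which makes NADPH, had 535 and 376 in Bmal1-flox 2 and 3, against 605, 71.1 and 82.0 in Cxcr4-flox 1, 2 and 3. For both, Cxcr4-flox 1 lay with the Bmal1-flox libraries, as it did for Hk2 and Hk3.

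Glycogen genes, 17 of 17 tested, had 0 calls, 11 positive and 6 negative differences and a median of 0.36. Pygl, the glycogen phosphorylase of liver and leukocytes, had 399 and 284 in Bmal1-flox 2 and 3, against 375, 80.9 and 12.1 in Cxcr4-flox 1, 2 and 3. Ppp1r3d, a glycogen-targeting subunit of protein phosphatase, had 34.0 and 33.4 in Bmal1-flox 2 and 3, against 28.0, 8.87 and 5.27 in Cxcr4-flox 1, 2 and 3. Ppp1r3b, another such subunit, had 78.2 and 62.8 in Bmal1-flox 2 and 3, against 15.1, 86.6 and 3.98 in Cxcr4-flox 1, 2 and 3. Again the lowest library for each was Cxcr4-flox 3.

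Genes of pyruvate entry into mitochondria, 10 of 10 tested, had 0 calls, 4 positive and 6 negative differences and a median of -0.25, which was 0.18 without Bmal1-flox 2 and between -0.45 and -0.023 without any other library. Pdp1, the phosphatase that switches pyruvate dehydrogenase back on and so opposes the kinases above, had 2.41 and 2.02 in Bmal1-flox 2 and 3, against 6.46, 22.2 and 20.0 in Cxcr4-flox 1, 2 and 3, without overlap (difference -2.26, SE 0.94, limma unadjusted p 0.0418, adjusted p 0.9999). These values stand for 8 and 9 reads in the Bmal1-flox libraries, against 3, 105 and 171 reads in the Cxcr4-flox ones. Mpc1, a subunit of the mitochondrial pyruvate carrier, had a difference of the opposite sign, with 25.0 and 15.7 in Bmal1-flox 2 and 3, against 8.61, 3.80 and 6.21 in Cxcr4-flox 1, 2 and 3. Dld, the dehydrogenase subunit shared with other complexes, had 21.9 and 34.5 in Bmal1-flox 2 and 3, against 25.8, 52.8 and 37.8 in Cxcr4-flox 1, 2 and 3, and overlapped.

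Of 20 genes of the HIF pathway and HIF targets outside glycolysis 19 were tested, with 0 calls, 9 positive and 10 negative differences and a median of -0.068, which was 0.26 without Cxcr4-flox 3, 0.20 without Bmal1-flox 3 and 0.061 without Cxcr4-flox 2. Egln2, an oxygen-sensing prolyl hydroxylase, had 30.4 and 22.4 in Bmal1-flox 2 and 3, against 47.4, 71.1 and 51.4 in Cxcr4-flox 1, 2 and 3, without overlap (difference -1.07, SE 0.53). Egln3, a hydroxylase that HIF itself induces, had 19.5 and 9.42 in Bmal1-flox 2 and 3, against 4.31, 9.08 and 0.117 in Cxcr4-flox 1, 2 and 3. Bnip3, a mitophagy receptor and HIF target, had 33.1 and 11.9 in Bmal1-flox 2 and 3, against 2.15, 9.92 and 11.9 in Cxcr4-flox 1, 2 and 3. Egln3 had no overlap on the higher side and Egln2 none on the lower side, and Bnip3 overlapped.

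Of 24 other glycolysis and sugar carrier genes 16 were tested, with 0 calls, 7 positive and 9 negative differences and a median of -0.20, which was -0.45 without Cxcr4-flox 1 and between -0.12 and -0.043 without any other library. Slc16a7 and Ldhd, a monocarboxylate carrier and a dehydrogenase of D-lactate, reached 2.71 and 2.91 in the Bmal1-flox libraries, against 0.234 and 0.422 in the Cxcr4-flox ones, below the 6.46 that 3 reads are worth in Cxcr4-flox 1. Khk, the fructose kinase, had 14.7 and 18.8 in Bmal1-flox 2 and 3, against 10.8, 71.6 and 80.0 in Cxcr4-flox 1, 2 and 3. Gluconeogenesis had 4 testable genes of 7, with 0 calls, 1 positive and 3 negative differences and a median of -0.49, which was -0.022 without Bmal1-flox 2. Pck2, the mitochondrial carboxykinase, had 12.0 and 17.0 in Bmal1-flox 2 and 3, against 17.2, 27.9 and 20.7 in Cxcr4-flox 1, 2 and 3. G6pc3, the phosphatase of most tissues, had 5.71 and 6.73 in Bmal1-flox 2 and 3, against 8.61, 20.7 and 11.2 in Cxcr4-flox 1, 2 and 3. Slc37a4, which carries glucose phosphate into the endoplasmic reticulum, had 5.11 and 6.73 in Bmal1-flox 2 and 3, against 2.15, 4.86 and 2.46 in Cxcr4-flox 1, 2 and 3. Of the 4 tested genes of this list, 1 had no overlap on the higher side (Slc37a4), where 13.6% of all genes tested stood. On the lower side 2 had none (Pck2 and G6pc3), where 5.22% stood. These 3 were named for their small p, which favours a lack of overlap. In Cxcr4-flox 1 the values stand for 8 reads of Pck2, 4 of G6pc3 and 1 of Slc37a4. The gaps were narrow for Pck2 (17.0 against 17.2) and Slc37a4 (5.11 against 4.86).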

How the data were processed

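Per the submitters' processing notes, CASAVA 1.8.2, cutadapt, RSEM 1.2.3 and the build GRCm38 were used, with no role or order given. The authors deposited normalised read counts, a signal per gene that is never negative, for 5 libraries. How they were normalised, with which annotation and strand setting, is not given in the sources used here. Dividing each column by its lowest value above 0 gave whole numbers for 100% of values (tolerance 0.01), and these recovered reads entered edgeR and DESeq2. Identifiers were matched to GENCODE M21 for 18847 of 19127 genes.

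Differences were tested in R 4.3.3 by limma 3.58.1, with an intensity trend, on log2(value + 1) for the 14632 genes whose mean CPM reached 1. Tests were two-sided with Benjamini-Hochberg adjustment and a threshold of 0.05. edgeR 4.0.16 (quasi-likelihood) and DESeq2 1.42.0 were alternatives. The fit was tested on counts simulated with a dispersion of 0.05 and without differences in cell content between libraries. The real libraries differed in cell content, so that test does not give the power or error rate here. Shares used values per kilobase of merged exons. Copies were found with BLAST at 95% identity over 300 bases. Intervals cover counting error only.

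Members, lists and tests were chosen with earlier results of these data known. Values in every library are given for the leading isoform of each step, the 4 members of smallest p per direction, members without overlap and isoforms whose share is described, and of other lists for the 3 genes of smallest p. Chi-square per degree of freedom between replicates was 23.5 or more, so none was a duplicate.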

Additional observations from a re-analysis of the deposited data

How the results depend on the processing

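The count of 0 members called held with every setting tried, and the median difference of the members stayed positive, from 0.32 (DESeq2) to 0.61 (without Cxcr4-flox 1). DESeq2 called 13 of all genes. At an unadjusted p under 0.05 there was 1 member with a pseudocount of 5 (Pfkfb4), with no filter (Aldoc), with quantile normalisation and with no intensity trend (Pfkm in both), and from 0 to 7 in fits without 1 library, the 7 without Cxcr4-flox 1, where 10.7% of all genes passed it. The median of all genes was 0.11 and moved to -0.044 with quantile normalisation, -0.086 with edgeR and -0.099 with DESeq2, where the members' median was 0.36, 0.35 and 0.32. Both groups hold replicates numbered 2 and 3, without a day or litter behind the number in the labels. Same-numbered libraries correlated at 0.28 and 0.39 in their deviations, and crossed pairs at -0.39 and -0.28. The deviations of 2 Bmal1-flox libraries mirror each other, so these values are not independent. A limma fit with the replicate number as a block found 11 members (beside 14.9% of all genes) at an unadjusted p under 0.05 and 0 at an adjusted one. Number 1 occurs in the Cxcr4-flox group alone, so the block fit has the same differences as the fit without Cxcr4-flox 1. In both fits Ldha was at 0.027 and Slc16a1 at -0.068. Gpi1 was at -0.0088 with edgeR and -0.057 with DESeq2, and Pgk1 at -0.27 with its copies added. That alternative, chosen after seeing the data, adds the values of near-identical copies to their member. Which locus those reads came from, and the cause of any of these reversals, was not tested.

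Without 1 library in turn, members without overlap numbered 8 (without Cxcr4-flox 3, 26.7% beside 32.6% of all genes) to 18 (without Bmal1-flox 3, 62.1% beside 39.2%), and isoform shares without overlap 6 to 11. Where 1 Bmal1-flox library is left, it is assumed to vary like the other group. Differences ran from -0.13 to 0.59 for Gpi1, -0.77 to 0.20 for Pfkl, -0.088 to 0.41 for Aldoa, -0.49 to 0.12 for Tpi1, -0.43 to 0.027 for Ldha, -1.49 to 0.41 for Ldhb, -1.25 to 2.36 for Slc16a1 and -1.15 to 1.92 for Pdk4. List medians ran from -0.45 to -0.043 for other glycolysis genes, 0.35 to 0.99 for pentose phosphate, 0.21 to 0.44 for glycogen, -0.45 to 0.18 for pyruvate entry -0.91 to -0.022 for gluconeogenesis and -0.29 to 0.26 for HIF. Depth limits Cxcr4-flox 1 most, since its 3-read floor is 6.46 normalised counts.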
